A study of Danio rerio with 10 samples.

Results

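The transcripts described here are those of tbx16, tbxta, tbx6 and eomesa, which encode T-box transcription factors of the early mesoderm, and of noto, a homeobox factor of the notochord. They were taken as every probe set that the array annotation gives to these 5 genes, 5 of 8793 measured genes. These are 6 of the 15502 probe sets tested: Dr.179.1.S1_at and Dr.179.1.S2_at for tbx16, Dr.1468.1.S1_at for tbxta, Dr.18309.1.S1_at for tbx6, Dr.10724.1.S1_at for eomesa and Dr.352.1.S1_at for noto. The annotation gives none of them to a second gene. The study measured whole zebrafish embryos on 10 Affymetrix Zebrafish Genome Arrays in 2 experiments. In the first, batches of embryos injected just after fertilization with a morpholino against sox19b (3 arrays, labelled morphant) were compared with control batches (3 arrays), all collected at 4.3 h post fertilization (hpf). The controls are called wild type in the labels and placebo-injected in the series text. The second set wild type embryos of 4 hpf, past the mid-blastula transition, when zygotic transcription starts in earnest, against those of 2.5 hpf, ahead of it, with 2 arrays per group. No strain and no number of embryos per batch is given in the sources used here, and nothing says that the batches had different parents, so p-values measure the spread between these samples only.

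The morpholino is shown because it is the agent that separates the groups of the first experiment. Its dose is not stated in the labels. It is an antisense oligonucleotide of 25 bases, written here 5′ to 3′ as the labels give it, above its reverse complement, which is the strand of the transcript it pairs with:
sox19b morpholino: acatttgactgtggagaggaaaaaa
paired transcript strand: ttttttcctctccacAGtcaaatgt
The capitals mark the only AG of the paired strand. Of the 15 bases before it 14 are pyrimidines, and 8 bases follow it. Introns end in AG after a run rich in pyrimidines, and the labels place the target at an intron-exon junction. A morpholino against splicing acts on transcript that still holds its introns, and so not on spliced transcript supplied by the egg.

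T-box factors bind DNA through a conserved T domain and switch on genes of mesoderm and endoderm at the margin of the blastoderm, where Nodal signals are received. In zebrafish, eomesa messenger RNA is laid down by the mother and its protein acts with effectors of Nodal signalling, whereas tbx16, tbxta, tbx6 and noto are transcribed from the embryo's own genome. Tbx16, altered in spadetail mutants, is needed for the movement and fate of trunk paraxial mesoderm. Tbxta, altered in no tail mutants, is needed for the notochord and tail, tbx6, altered in fused somites mutants, for the division of paraxial mesoderm into somites, and noto, altered in floating head mutants, for the notochord.

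Values are log2 expression values normalized by the authors, so that a difference of 1 is a 2-fold change, and the experiments have separate scales. The background level of a group was taken as the highest mean among 17 tag controls, which match no zebrafish transcript. It was 5.10 in arrays labelled morphant, 5.13 in controls, 6.33 at 4 hpf and 6.24 at 2.5 hpf. A probe set at or below it in a group is said to be at background there, and a fold change against such a group is a lower bound. A probe set is said to have risen or fallen where limma gave an adjusted p below 0.05 over all probe sets tested.

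The 2 probe sets of sox19b, the targeted gene, read 1.96-fold and 2.52-fold higher in arrays labelled morphant than in controls (adjusted p = 0.00214 and 0.000182). Where they lie in the transcript was not analysed here, and transcript with a blocked splice site may still be read, so they do not check the label. Of 10 genes of the blastula, sox19b among them, 9 were above background in arrays labelled morphant and 10 in controls. At 4 hpf 8 were above it, and at 2.5 hpf 4. Of 13 markers of late differentiated tissues, 12, all but ins, were at background both in arrays labelled morphant and in controls. Arrays of one group correlated across probe sets at 0.99 or more, and control replicate 2 stood farthest from its group, at 0.99 and 0.992.

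Tbx16 and tbxta were far lower in arrays labelled morphant than in controls, noto was lower by less, and eomesa and tbx6 were not called. Of the 6 probe sets, 4 fell and 0 rose, where 21.2% of all probe sets were called lower and 21.3% higher, 42.5% in all. Both tbx16 probe sets are among these 4, so the genes that fell are tbx16, tbxta and noto. Counted by gene, 21.5% of all measured genes were called lower. The 6 probe sets, both of tbx16 included, had a median difference of -1.64 on the log2 scale, against -0.04 over all probe sets. Of the 6, 4 lay wholly below the control arrays, as 27.3% of all probe sets did. Whole embryos were measured, so fewer cells of a type and less RNA per cell cannot be told apart.

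Tbx16 fell the most. Its probe set Dr.179.1.S1_at read 6.15, 6.81 and 6.31 in arrays labelled morphant and 10.80, 11.21 and 10.90 in control arrays. The groups were 3.99 apart at their nearest arrays, and all 6 arrays were above background. The fall of 4.55 (SE 0.18, unadjusted 95% interval -4.94 to -4.16, adjusted p = 6.34e-08) left 4.27% of the control level and was the 11th largest among all probe sets. The other tbx16 probe set, Dr.179.1.S2_at, read 6.28, 6.62 and 6.25 in arrays labelled morphant against 9.60, 9.23 and 9.18 in controls. It fell by 2.95 (SE 0.15, 95% interval -3.28 to -2.62, adjusted p = 2.14e-07), which left 12.9% of the control level. Both probe sets thus fell in the same direction with no overlap, and their intervals do not meet, so the size of the fall in tbx16 depends on the probe set read, a difference that was not tested. In both, replicate 2 was the highest of the arrays labelled morphant.

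Tbxta read 6.24, 6.14 and 5.93 in arrays labelled morphant and 8.12, 8.92 and 8.34 in controls. Every array labelled morphant was above background and at least 1.88 below every control array. The fall of 2.36 (SE 0.19, 95% interval -2.77 to -1.95, adjusted p = 3.46e-06) left 19.5% of the control level. Control replicate 2 had the highest tbxta value of the 6 arrays, and without it the fall was 2.13 (adjusted p = 8.03e-08).

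Noto read 8.39, 8.69 and 8.10 in arrays labelled morphant and 9.44, 9.22 and 9.32 in controls. The groups did not overlap, but they lay only 0.53 apart at their nearest arrays, and the transcript stayed well above background in all 6. The fall of 0.93 (SE 0.15, 95% interval -1.26 to -0.60, adjusted p = 0.000468) left 52.6% of the control level. Its interval does not meet those of the larger falls of tbx16 and tbxta, though no test set one gene's fall against another's.

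Eomesa, the maternally supplied member, read 8.37, 8.36 and 8.40 in arrays labelled morphant and 8.17, 7.89 and 8.24 in controls. The arrays labelled morphant were the higher in every case, by 0.12 at the nearest, as in 25.1% of all probe sets. The difference of 0.28 (SE 0.12, 95% interval 0.02 to 0.54) did not pass the threshold (adjusted p = 0.0863, and 0.00599 to 0.257 over the alternatives). Scaling on Bacillus control probe sets made it a rise of 0.52 (adjusted p = 0.00599), and leaving out control replicate 2, the lowest array, lowered it to 0.17 (adjusted p = 0.257). Tbx6 was at background in both groups, with 4.12, 4.41 and 4.67 in arrays labelled morphant and 4.45, 4.53 and 4.50 in controls. Its groups overlapped (difference -0.09, 95% interval -0.40 to 0.22, adjusted p = 0.661), and these arrays do not show whether it was transcribed at 4.3 hpf.

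**Figure D1:**
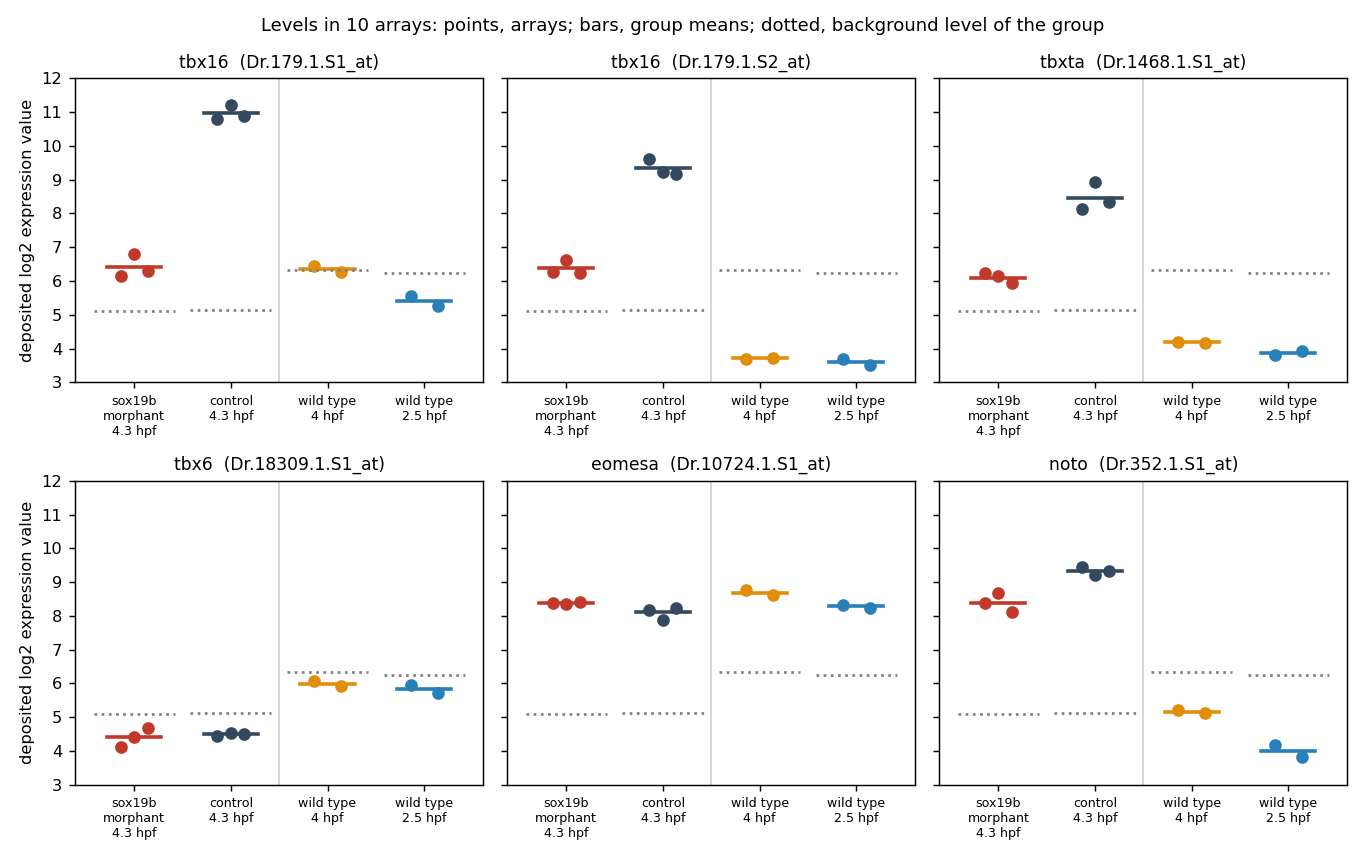
Deposited log2 expression values (vertical axis) of the 6 probe sets in each array, by group (horizontal axis). Points are arrays, bars are group means, dotted lines are the background level of each group, and the grey line separates the experiments, whose scales differ. Tbx16 and tbxta drop in arrays labelled morphant and noto drops by less, eomesa stays near 8.38 in arrays labelled morphant and 8.10 in controls, and tbx6 lies under the dotted line in every group.

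Markers of the blastula and of other cell layers moved in the same arrays. There 21.5% of all measured genes were called lower and 26.0% higher. Of the 10 blastula genes 7 fell and 1, sox19b itself, rose (median -1.99). Their summed level (log2 of the sum) was 12.56 to 12.79 in arrays labelled morphant against 13.51 to 13.72 in controls. Of 13 enveloping layer genes, which mark the outer cell sheet of the embryo, 12 fell, and their summed level was 9.37 to 9.84 in arrays labelled morphant against 12.75 to 13.30 in controls. Of 8 yolk syncytial genes, which mark the shared cytoplasm at the surface of the yolk, 6 fell, with summed levels of 8.41 to 8.96 against 10.57 to 11.30. Of 11 oocyte genes 8 rose, with summed levels of 14.31 to 14.37 in arrays labelled morphant against 13.02 to 13.46 in controls. Above background were 6 enveloping layer and 2 yolk syncytial genes in arrays labelled morphant, against 11 and 6 in controls, and all 11 oocyte genes in both. The part of these shifts in the falls of tbx16, tbxta and noto was not tested.

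Across the mid-blastula transition, eomesa was present at both times and was higher at 4 hpf, tbx16 passed the background level by only 1 of its probe sets, and tbxta, tbx6 and noto were still at background. Of the 6 probe sets, 4 were called higher at 4 hpf and 0 lower, where 9.66% of all probe sets were called higher and 9.88% lower, 19.5% in all. Their median difference was 0.36, against 0.05 over all probe sets, and 4 lay wholly above the arrays at 2.5 hpf, as 37.7% of all probe sets did. Only 2 of the 6 had a group mean above background, and 2 of the 4 calls, those of tbxta and noto, are of values no higher than the highest tag control.

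At 4 hpf eomesa read 8.76 and 8.62, against 8.32 and 8.24 at 2.5 hpf. It was above background at both times, and both later arrays were the higher. It was 1.32-fold higher at 4 hpf (log2 difference 0.41, SE 0.09, adjusted p = 0.0103). The call was lost without 4 hpf replicate 1 (0.33, adjusted p = 0.0552) or without 2.5 hpf replicate 2 (0.37, adjusted p = 0.0674).

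Of tbx16, probe set Dr.179.1.S1_at had values of 6.45 and 6.28 at 4 hpf, against 5.56 and 5.26 at 2.5 hpf. The mean at 4 hpf, 6.36, lay just above the background level of 6.33, with 1 array on each side of it. It rose by 0.96 (SE 0.11, adjusted p = 0.000116), and counted against background at 2.5 hpf the rise was at least 1.09-fold. Probe set Dr.179.1.S2_at had 3.68 and 3.73 at 4 hpf, against 3.69 and 3.52 at 2.5 hpf, below all 17 tag controls at both times. Its groups overlapped and it was not called (0.10, 95% interval -0.11 to 0.30, adjusted p = 0.489). The rise of tbx16 thus rests on 1 probe set, whose interval of 0.71 to 1.20 does not meet that of the other.

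Noto stood at 5.22 and 5.11 at 4 hpf, against 4.18 and 3.82 at 2.5 hpf. It was above 10 of the 17 tag controls at 4 hpf and above 0 of them at 2.5 hpf, and its groups lay 0.92 apart. The difference of 1.16 (SE 0.12, adjusted p = 3.36e-05) was called, but no fold is given because both times were at background. Tbxta stood at 4.20 and 4.16 at 4 hpf, against 3.82 and 3.92 at 2.5 hpf, above 1 of the 17 tag controls at 4 hpf and 0 at 2.5 hpf. Its difference of 0.31 (SE 0.09, adjusted p = 0.0301) was called with all 4 arrays and lost when any 1 of them was left out (adjusted p = 0.0627 to 0.114). Tbx6 stood at 6.07 and 5.92 at 4 hpf, against 5.96 and 5.71 at 2.5 hpf, with overlapping groups (difference 0.16, adjusted p = 0.306). In the same arrays 6 of 10 blastula genes, 4 of 13 enveloping layer genes and 1 of 8 yolk syncytial genes rose. Of all measured genes, 8.86% were called higher and 11.8% lower. All 13 enveloping layer genes and 7 of the 8 yolk syncytial genes were at background at both times. Of 11 oocyte genes 4 fell, and 9 fell under median centring, with summed levels of 14.71 to 14.73 at 4 hpf against 14.89 to 14.92 at 2.5 hpf. The part of these shifts in the rises was not tested.

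**Figure D2:**
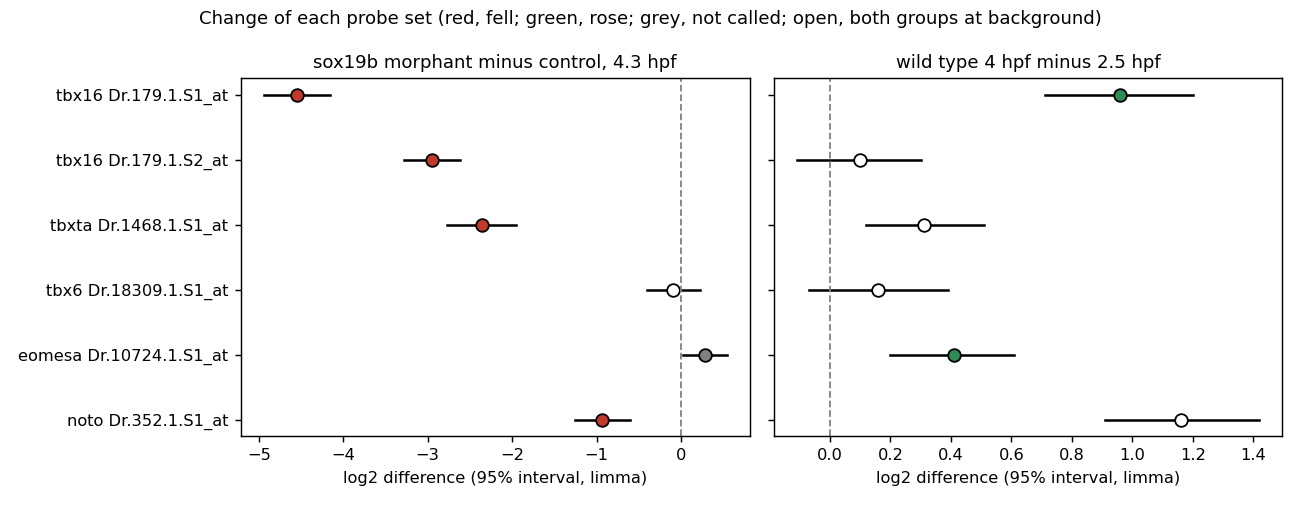
Log2 difference of each probe set with its unadjusted 95% interval from limma (horizontal axis), in the morphant experiment (left) and across the mid-blastula transition (right); the horizontal scales differ. Red points fell, green points rose, grey points were not called and open points were at background in both groups. The falls of tbx16 (-4.55 and -2.95), tbxta (-2.36) and noto (-0.93) have intervals apart from 0, and on the right only Dr.179.1.S1_at of tbx16 and eomesa are filled.

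The levels of all 4 groups were set side by side after the 10 arrays had been quantile normalized together. The 4.3 hpf arrays and the wild type arrays come from separate experiments, so time and experiment cannot be told apart between them. Probe set Dr.179.1.S1_at of tbx16 averaged 6.61 in arrays labelled morphant, 10.96 in controls, 5.88 at 4 hpf and 4.87 at 2.5 hpf. Tbxta averaged 6.32 in arrays labelled morphant, 8.60 in controls, 3.39 at 4 hpf and 3.16 at 2.5 hpf. Noto averaged 8.51, 9.36, 4.45 and 3.31 in the same groups. For these 3 genes the order was controls, arrays labelled morphant, 4 hpf and 2.5 hpf, with no overlap between neighbours. All 3 thus read higher in arrays labelled morphant than in wild type at 4 hpf, with no overlap of arrays. However, tbxta and noto were at background at 4 hpf and 2.5 hpf, and Dr.179.1.S1_at of tbx16 at 2.5 hpf. The order of the wild type groups is thus one of values at or near background. Under this normalization the tbxta difference between 4 hpf and 2.5 hpf was 0.23 and was not called (limma, adjusted p = 0.142). Dr.179.1.S2_at of tbx16 had the same order, but its arrays at 4 hpf and 2.5 hpf, at background at both times, overlapped (means 2.88 and 2.87). Eomesa was the flattest above background, with 8.49 in arrays labelled morphant, 8.29 in controls, 8.53 at 4 hpf and 7.99 at 2.5 hpf. Arrays labelled morphant and those at 4 hpf overlapped for it. Tbx6, at background throughout, averaged 4.86 in arrays labelled morphant, 4.85 in controls, 5.42 at 4 hpf and 5.36 at 2.5 hpf, with overlap within each experiment.

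The genes whose pattern lay nearest to each of the 5 were sought among 7384 probe sets of single genes. Those were above background in at least 1 group, and none belonged to the 5. Of the probe sets of tbx16 the brightest was used, while each gene found was represented by its nearest probe set. The measure was the root mean square of the log2 difference over 10 arrays, after each experiment's mean had been removed. It is a description chosen for likeness, and the arrays of a group share their embryos' age and treatment. The nearest to tbx16 were mycn, a Myc family factor (0.23), lrwd1 (0.24) and afp4 (0.28), where the median probe set lay at 1.80. Mycn, at background in arrays labelled morphant, differed by -4.22 from controls there and by 1.00 between 4 hpf and 2.5 hpf, where it was at background at both times. The nearest to tbxta were foxa3, a forkhead factor of endoderm and axial mesoderm (0.11), the small GTPase gene rhoab (0.12) and rasgef1bb (0.12), against a median of 0.95. Foxa3 differed by -2.40 in arrays labelled morphant, and by 0.15 at 4 hpf, where it was at background at both times and was not called. Nearest to noto were the Wnt receptor gene fzd8a (0.18), crebzf (0.19) and the RNA-binding gene khdrbs1a (0.20), against a median of 0.58. The probe sets of all 3 were at background at 4 hpf and 2.5 hpf, as noto was, and that of khdrbs1a also in arrays labelled morphant. The neighbours of tbx16 and tbxta were likewise all at background at both of these times. Lrwd1 and rasgef1bb were also at background in arrays labelled morphant. The probe sets of these genes, of mycn and of khdrbs1a thus entered the search through the controls alone, the only group where they were above background. For eomesa they were the tetraspanin gene cd9b (0.05), the nuclear pore gene nup35 (0.06) and tab1 (0.07), and for tbx6 the actin regulator vaspb, slc12a4 and the histone demethylase gene kdm7aa (0.05 to 0.06). The medians for eomesa and tbx6 were 0.30 and 0.28, so flat patterns had many near neighbours. Tbx6 was at background in every group, so its neighbours are near to values that do not show its transcript. Kdm7aa was itself at background in arrays labelled morphant and in controls.

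Because the 5 were left out of that search, the distances among them were taken separately. By those distances, none of the 5 lay nearer to another than its 3 nearest genes did. Those 3 were the nearest of 7384 probe sets, so this says little of the likeness among the 5. The distance is not scaled to the size of change. Genes that fell together by unlike amounts, as tbx16 and tbxta did, therefore lie apart by it. Tbxta lay 0.67 from noto, 0.90 from tbx16, 0.92 from tbx6 and 1.06 from eomesa. The smallest distance between any pair was 0.22, between tbx6 and eomesa. The values of both moved little, but those of tbx6 were at background in every group and do not show its transcript.

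**Figure D3:**
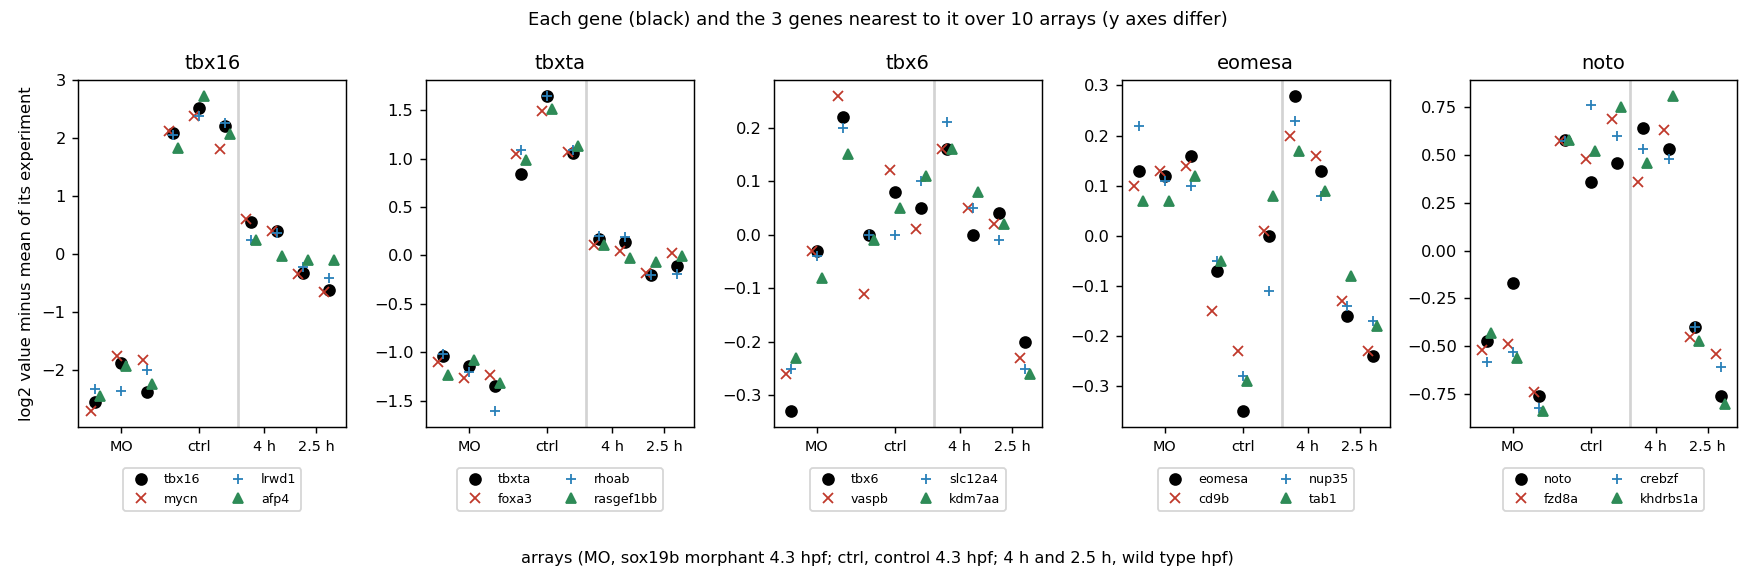
Log2 values minus the mean of their experiment (vertical axis; the scales differ between panels) in the 10 arrays (horizontal axis), for each gene in black and the 3 genes nearest to it in colour. MO is sox19b morphant and ctrl control, both at 4.3 hpf, and 4 h and 2.5 h are wild type. Tbx16 lies as far as 2.55 below its mean in arrays labelled morphant, and eomesa and its neighbours stay within 0.35 of theirs in all arrays.

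Other genes of the mesoderm programme were counted by lists, with 1 probe set per gene. Of all 8793 measured genes, 21.5% were called lower in arrays labelled morphant and 26.0% higher. Among genes of the Nodal pathway, of posterior FGF and Wnt signals and of axial and paraxial mesoderm, falls outnumbered rises, and other T-box genes were mostly at background. No test compared a list with other genes. The median over all measured genes was -0.02, and scaling on Bacillus control probe sets moved the median of all probe sets from -0.04 to 0.21.

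Of 11 other T-box genes, 9 were at background in both groups. Tbx16l read 4.51, 4.86 and 4.71 in arrays labelled morphant and 5.15, 5.47 and 5.16 in controls. It fell at least 1.12-fold (log2 difference -0.57, adjusted p = 0.00552) and was at background in arrays labelled morphant. Tbx5a, a heart and fin factor, was 1.84-fold higher by 1 probe set (limma, adjusted p = 0.000126). It read 6.17, 5.89 and 6.21 in arrays labelled morphant and 5.20, 5.20 and 5.25 in controls, just above the background level of 5.13. The other tbx5a probe set, at background, differed by -0.10. Mgaa, at background in both groups, also fell (-0.48, adjusted p = 0.0155), so that 2 of the 11 fell and 1 rose (median -0.12). Under Bacillus control scaling 0 fell and 4 rose (median 0.12), so the direction of this list depends on the scaling.

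Of 16 genes of the Nodal pathway, whose signal induces mesoderm, 11 fell and 3 rose (median -0.62). In both groups 3 were at background: smad3a and smad3b, which rose, and sebox, which fell. The remaining rise was that of gdf3 (log2 difference 0.35, adjusted p = 0.02). The ligand gene ndr2 read 5.29, 5.14 and 5.39 in arrays labelled morphant and 5.98, 6.30 and 6.21 in controls, 1.85-fold lower. The co-receptor gene tdgf1 read 8.94, 9.05 and 8.94 in arrays labelled morphant and 9.97 to 10.05 in controls, 2.04-fold lower (adjusted p = 1.45e-05). These groups did not overlap, and the transcripts stayed above background, ndr2 only just so in arrays labelled morphant (background level 5.10). Foxh1, a DNA-binding partner of the Nodal effectors, was 2.33-fold lower (adjusted p = 1.16e-05; its other probe set differed by -0.71), and mixl1, a homeobox target, 2.52-fold lower (adjusted p = 0.000548). Under Bacillus control scaling 8 fell and 4 rose.

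Of 27 paraxial and tail mesoderm genes, 11 fell and 2 rose (median -0.32), and 12 were at background in both groups. The Snail family gene snai2 read 5.56, 6.18 and 5.48 in arrays labelled morphant and 9.21, 9.29 and 9.08 in controls, 10.9-fold lower (adjusted p = 2.15e-07), and its 2 other probe sets differed by -1.94 and -2.78. Eve1, a homeobox gene of the ventral and posterior margin, read 3.83, 4.95 and 4.39 in arrays labelled morphant and 6.47, 8.57 and 7.19 in controls. It fell at least 4.96-fold to background, with control replicate 2 the highest array. Drl, a zinc finger gene of lateral mesoderm, fell at least 5.87-fold to background, and the chemokine receptor gene cxcr4a was 10.2-fold lower. The median moved with single control arrays, to -0.81 without control replicate 1 and to -0.11 without control replicate 2, while 14 and 11 fell and 2 and 5 rose.

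Of 21 axial mesoderm and organiser genes, 10 fell and 1 rose (median -0.61; -0.20 without control replicate 2, where 10 again fell). The largest falls called were those of admp, a BMP-like ligand of the organiser (7.33-fold), gsc, an organiser homeobox factor (5.40-fold), foxa3 (5.29-fold) and the BMP antagonist gene chrd (4.22-fold). All 4 stayed above background in arrays labelled morphant. Of 29 FGF and Wnt posterior signal genes, 17 fell and 4 rose (median -0.82), and 6 were at background in both groups. The FGF receptor gene fgfr4 read 6.30, 6.87 and 5.93 in arrays labelled morphant and 9.14, 9.39 and 9.11 in controls, 7.19-fold lower. The ligand gene fgf8a was 4.20-fold, its target etv4 4.21-fold and the Wnt receptor gene fzd7a 4.57-fold lower.

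From 2.5 to 4 hpf the same lists held fewer calls, nearly all of them higher. All measured genes were called higher in 8.86% and lower in 11.8% of cases. Of 16 Nodal pathway genes 5 rose and 0 fell, of 27 paraxial and tail genes 7 and 0, of 21 axial genes 6 and 0, of 29 FGF and Wnt genes 6 and 3, and of 11 other T-box genes 1 and 0. At background at both times were 6 of the Nodal pathway genes, 19 of the paraxial and tail genes, 19 of the axial genes, 16 of the FGF and Wnt genes and all 11 other T-box genes, as were tbxta, tbx6 and noto. Mxtx2, a homeobox gene of the yolk syncytial layer, had 8.23 and 7.89 at 4 hpf, against 5.03 and 4.97 at 2.5 hpf, at least 3.53-fold higher. The Nodal inhibitor gene lft2 rose at least 1.19-fold. Snai1a, a Snail family gene above background at both times like eomesa, had 9.03 and 9.08 at 4 hpf, against 8.50 and 8.49 at 2.5 hpf, 1.47-fold higher (adjusted p = 0.000975). Snai2 rose at least 1.68-fold, cxcr4a at least 2.25-fold and cxcr4b at least 2.32-fold, all from background, and the 2 other snai2 probe sets differed by 0.11 and 1.08. Admp, the only axial gene both called and above background, had 7.50 and 7.52 at 4 hpf, against 5.84 and 5.79 at 2.5 hpf, at least 2.42-fold higher. The FGF feedback gene dusp6 rose at least 1.32-fold by 1 probe set, while its other probe set differed by 0.18. The FGF target etv4 rose 1.36-fold, and the Wnt effector tcf7l1b was 1.30-fold lower. Fzd8a rose at least 1.08-fold by its brightest probe set, not the one nearest to noto, which was at background at both times.

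**Figure D4:**
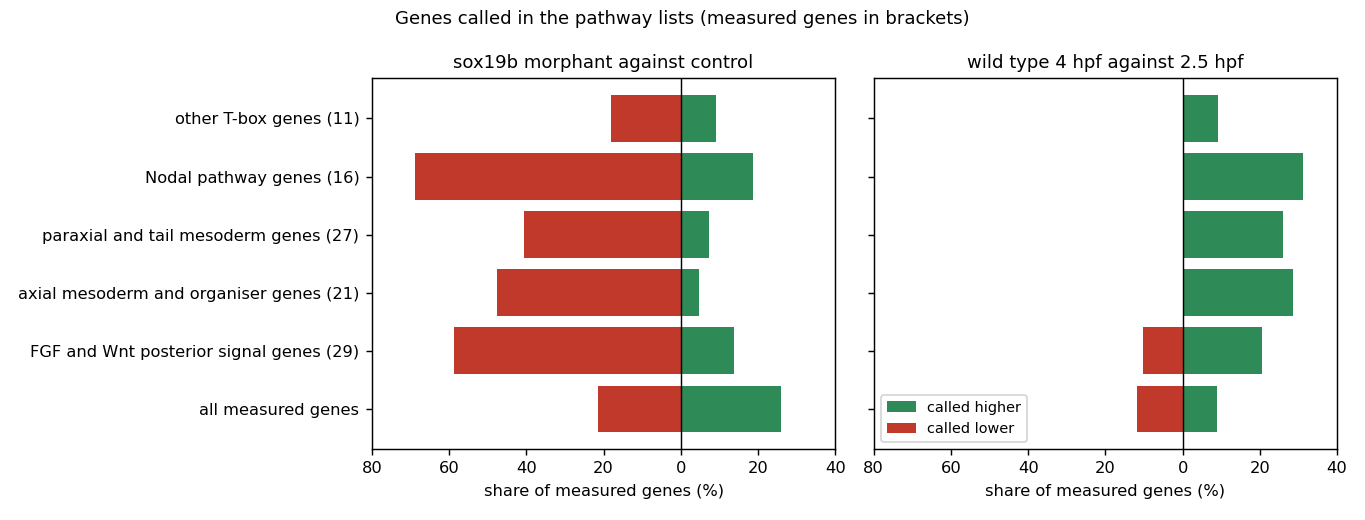
Share of the measured genes of each list (percent, horizontal axis; number of measured genes in brackets) called higher (green, to the right) or lower (red, to the left) in the morphant experiment (left panel) and across the mid-blastula transition (right panel). The lowest bars give all 8793 measured genes, of which 21.5% were called lower in arrays labelled morphant; 11 of 16 Nodal pathway genes and 17 of 29 FGF and Wnt genes were.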

How the data were processed

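RNA of whole embryos was labelled as biotinylated cRNA and hybridized to 10 one-colour arrays, per the labels' protocols. The deposited log2 values per probe set were made by the authors with affy and RMA, per the submitters' processing notes; their versions are not given. Arrays give no counts, and the small number of arrays per group limits the precision. Array medians were 5.40 to 5.44 in the first experiment and 6.16 to 6.26 in the second, and the experiments were fitted apart.

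Of all probe sets, 115 AFFX controls were left out. Genes were named from the array annotation, updated by Entrez identifier through a RefSeq table of assembly GRCz12tu (10711 of 10795 probe sets with 1 gene matched). Each experiment was fitted by lmFit and eBayes of limma 3.58.1 under R 4.3.3, two-sided, with no term but the group, with Benjamini-Hochberg adjustment over 15502 probe sets. The fit was tested on data simulated for 15502 probe sets, with 50 of them changed by each known size. Of log2 changes of 0.5 it recovered 28% in the first experiment and 24% in the second. Of changes of 1 it recovered 82% and 74%, and of changes of 2, 98% and 94%. Far more probe sets were called in the real data, 42.5% and 19.5%. The adjustment thus worked under other conditions there, and these shares need not hold for the reported fits. A small difference that was not called may still have been missed. A gene in a list is represented by its probe set with the highest mean over 10 arrays. Genes were named as the called members above background in at least 1 group with the largest change (at most 4 per list and comparison), and as the 3 genes nearest to each of the 5. The genes, lists and tests were chosen with earlier results of these data known.

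Deviations of arrays with the same replicate number correlated at 0.318, 0.202 and 0.114 in the first experiment, all above 0.1, and at -0.0241 in the second. The numbers of the first experiment may thus mark pairs, but the values reported come from the fit without pairs. Pairs entered only as a block among the alternatives. There the SE of Dr.179.1.S1_at of tbx16 in the first experiment was 0.1, against 0.18 in the reported fit. Alternatives were 3 other scalings (Bacillus controls, median centring, joint quantile), eBayes with trend and robust settings, dim probe sets left out, the replicate number as a block, and each array left out.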

Additional observations from a re-analysis of the deposited data

How the results depend on the processing

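The falls of both tbx16 probe sets, tbxta and noto kept their direction and stayed called under all 12 alternatives, with ranges of -4.74 to -4.31, -3.07 to -2.71, -2.53 to -2.12 and -1.07 to -0.69, and 4 probe sets were called under each except Bacillus control scaling, where eomesa made 5. With the replicate number as a block, eomesa differed by 0.28 (adjusted p = 0.0707), and the block changed no call of the 6 probe sets in either experiment. The difference of tbx6 turned positive under Bacillus control scaling (0.15), under joint quantile normalization (0.01) and without replicate 1 of the arrays labelled morphant (0.05), it spanned -0.23 to 0.05 when single arrays were left out, and its adjusted p was 0.21 or more under every alternative. The count of other T-box genes that fell was 0 under Bacillus control scaling and 1 with dim probe sets left out, and 1 to 2 when single arrays were left out. Between 4 and 2.5 hpf, 4 probe sets were called, 2 with dim probe sets left out (fewer were tested), and 2 to 3 when single arrays were left out. Tbxta was lost under median centring (0.23, adjusted p = 0.0981) and joint quantile normalization (0.23, adjusted p = 0.142). Other T-box genes called higher at 4 hpf numbered 0 under joint quantile normalization, 0 with dim probe sets left out and 0 to 3 when single arrays were left out. Axial genes called higher numbered 1 with dim probe sets left out. Over all probe sets, 3307 rose and 3284 fell in arrays labelled morphant, and 5631 and 1987 under Bacillus control scaling; at 4 hpf 1498 rose and 1532 fell, and 754 and 2302 under median centring. Without 2.5 hpf replicate 2, 599 rose and 827 fell at 4 hpf. The cause of these shifts was not tested. Few arrays and values near background limit what can be said of tbx6 at all stages and of tbxta and noto before 4.3 hpf.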
